A study of Mus musculus with 2 samples.

Results

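Solute carriers are membrane proteins that move ions, metals, nutrients and metabolites across the plasma membrane and the membranes of organelles, and their genes carry symbols that start with Slc. The genes described here are those expressed in alveolar type 2 (AT2) cells of the mouse lung. Of 27998 measured genes, 371 had a symbol of this form, with Slc34a2 and Slc1a5 left out. The 134 with a mean of at least 5 CPM (counts per 1000000 counted molecules) over the AT2 cells of both libraries were taken as members. A further 47 lay between 1 and 5 CPM, 115 lay above 0 and under 1 CPM, and 75 had no molecule counted in these cells. The members were thus chosen by their level in these cells, and the levels below are a description. Just inside the threshold were Slc25a15 at 5.23, Slc12a7 at 5.21, Slc39a6 at 5.05 and Slc36a1 at 5.05 CPM, and just outside it were Slc5a1 at 4.95, Slc38a9 at 4.83, Slc24a5 at 4.78 and Slc19a3 at 4.77 CPM. Of the members, 130 encode carriers. The other 4 carry the name only: the scaffold proteins encoded by Slc9a3r1 and Slc9a3r2, the adaptor encoded by Slc4a1ap, and Slc7a6os, a gene on the opposite strand of a carrier gene.

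AT2 cells make, store and recycle pulmonary surfactant and move salt and water across the alveolar wall. Surfactant synthesis draws on choline, fatty acids and amino acids taken up from the blood, and fluid movement depends on carriers of sodium, chloride and bicarbonate together with the sodium pump. Carriers of the SLC25 family sit in the inner mitochondrial membrane and exchange phosphate, nucleotides and metabolic acids, while families SLC30, SLC31, SLC39 and SLC41 carry zinc, copper, other metals and magnesium.

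The study holds 2 single-cell RNA libraries of lung cells from male mice, 1 labelled WT and 1 labelled IP-/- (IPKO), where IP is the receptor for prostaglandin I2 that the gene Ptgir encodes. Both were sorted as EpCAM+ cells lacking CD31, CD34, CD45, CD24 and Sca-1. The labels give no age, strain, treatment, promoter or number of animals for either group. Molecules were counted as unique molecular identifiers (UMIs) at the end of each transcript, 1 per captured transcript whatever its length, so that levels can be set side by side between genes without scaling by length, although capture may differ between genes. AT2 cells were taken as cells with at least 500 genes, at most 20% mitochondrial UMIs and at least 10% of UMIs from the surfactant gene Sftpc. This kept 6422 cells with 121793321 UMIs in the library labelled WT and 7465 cells with 131064361 UMIs in the library labelled IPKO. Their medians were 18307 and 17061 UMIs and 5.24% and 3.91% mitochondrial UMIs per cell.

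Of the 11 AT2 markers, Sftpc had chosen the cells. The 10 others summed to 59945 CPM in the library labelled WT and 55099 CPM in the library labelled IPKO, and the lowest of them stood at 314 and 341 CPM. The 9 markers of AT1 cells, the other cells of the alveolar wall, summed to 1789 and 1869 CPM, mainly from Ager, and 5 and 6 of them were at 5 CPM or more. Markers of removed cell types were low, with summed levels in the libraries labelled WT and IPKO of 13.8 and 18.4 CPM for 10 endothelial genes, 5.66 and 16.2 CPM for 12 myeloid genes, 2.71 and 5.69 CPM for 9 T and NK cell genes and 1.45 and 2.95 CPM for 8 mesenchymal genes. In the library labelled WT 1 gene of each of the myeloid, T and NK and mesenchymal lists was at 0, and in the library labelled IPKO none was. The 4 B cell genes summed to 22.5 and 25.4 CPM, nearly all from Cd79b. Club cell markers, mainly Scgb1a1, stood at 1218 CPM in the library labelled WT and 393 CPM in the library labelled IPKO. Ptgir went against the labels: AT2 cells of the library labelled WT held 0 of its UMIs and those of the library labelled IPKO held 314, in 299 cells. The labels do not place the deletion within the gene, so counts from the end of the transcript do not settle which library carries it. Each library is called by its label throughout, and if the labels were exchanged, every direction given below between the libraries would turn. Each group is a single library, so differences between the labels were not tested. Every interval given is at 95% and reflects counting error alone, not the spread between animals. For description, members were called higher or lower when the log2 ratio of their levels was at least 0.32 in size.

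Together the members summed to 4166 CPM in the library labelled WT and 4134 CPM in the library labelled IPKO, and the 10 highest made up 38.5% of this. Only 7 members were at 100 CPM or more, 49 were between 20 and 100, and 78 were between 5 and 20 CPM. Slc12a2, the sodium, potassium and chloride cotransporter that loads epithelial cells with chloride, stood at 296 CPM (293 to 299) in the library labelled WT and 274 CPM (271 to 277) in the library labelled IPKO. Slc25a3, the mitochondrial phosphate carrier, stood at 244 and 292 CPM. Slc25a5, which exchanges ADP for ATP across the mitochondrial membrane, stood at 237 and 234 CPM. The order of these 3 genes was thus not the same in both libraries, with Slc12a2 first in the library labelled WT and Slc25a3 first in the library labelled IPKO. Slc39a8, a carrier of zinc and manganese, followed at 170 and 180 CPM, and Slc31a1, the copper importer, at 176 and 156 CPM. By share of cells, 22 members had a UMI in at least 50% of cells of both libraries.

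**Figure D1:**
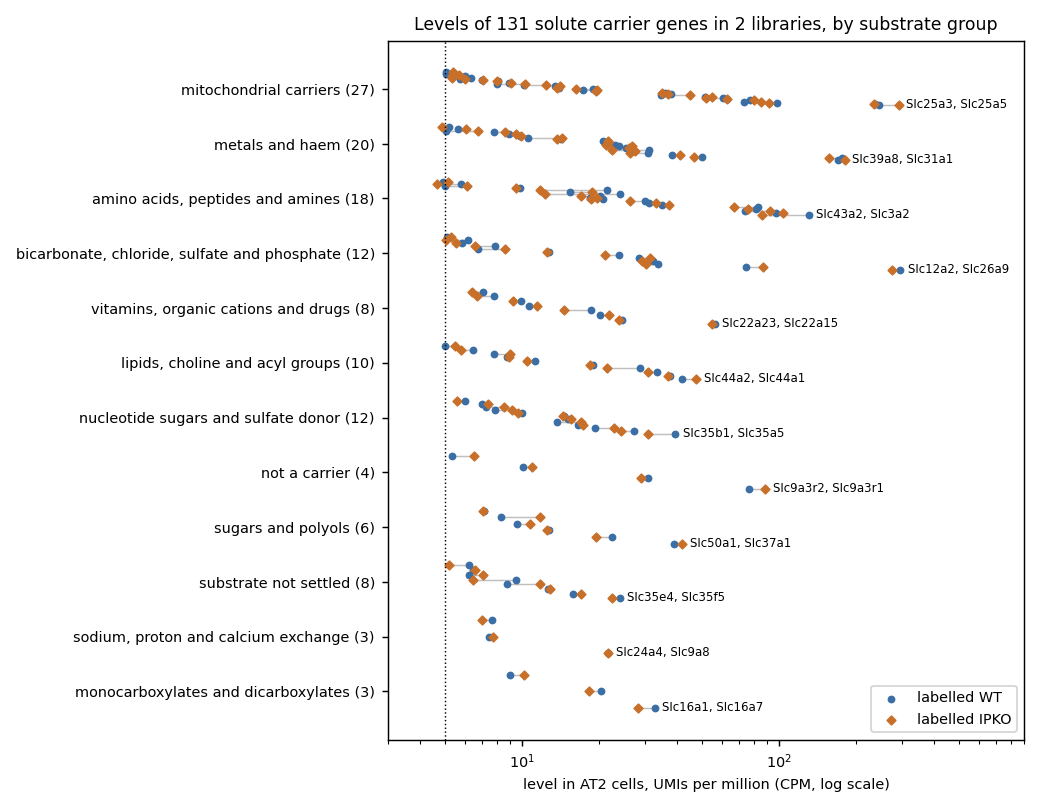
Level of 131 of the 134 solute carrier genes in AT2 cells, in CPM on a log axis, by substrate group, with 1 point for the library labelled WT and 1 for the library labelled IPKO; names at the right are the 2 highest drawn in each group. Slc12a2 at 296 and 274 CPM and Slc25a3 at 244 and 292 CPM lie farthest right, and 78 of all 134 genes had between 5 and 20 CPM.

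The 27 mitochondrial carriers held 29% of the members' UMIs, the largest share of the 12 substrate groups. Behind Slc25a3 and Slc25a5 came Slc25a51, the NAD importer, at 98.2 and 91.6 CPM in the libraries labelled WT and IPKO. The ADP and ATP exchanger Slc25a4 followed at 73 and 85.2 CPM, and Slc25a39, which brings glutathione into mitochondria, at 76.9 and 80.1 CPM. Carriers that link mitochondrial metabolism to fatty acid synthesis were also present. Slc25a1, which exports citrate, was at 60.6 and 52 CPM. Slc25a11, which exchanges oxoglutarate for malate, was at 51.6 and 54.9 CPM. Slc25a10, the dicarboxylate carrier, was at 34.6 and 45.2 CPM. The lowest of the group were Slc25a15 at 5.08 and 5.37 CPM and Slc25a40 at 5.06 and 5.42 CPM.

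Carriers of metals and haem numbered 20 and held 16.8% of the members' UMIs. Slc39a8 and Slc31a1 led them, and the next highest, Slc39a7, a zinc carrier of the secretory pathway, was at 50.1 and 46.8 CPM in the libraries labelled WT and IPKO. Slc48a1, a haem carrier of lysosomes, was at 38.5 and 41.2 CPM, and Slc41a1, a magnesium carrier, at 31.1 and 22.4 CPM. The zinc exporter of the plasma membrane, Slc30a1, was near the bottom of the group at 5.07 and 6.72 CPM. The genes of 4 carriers that bring zinc into the cytosol, Slc39a8, Slc39a7, Slc39a4 and Slc39a1, were each above 25 CPM in both libraries and so above this exporter. This did not hold for all of their family: Slc39a6, at 5.21 and 4.89 CPM, was below Slc30a1 in the library labelled IPKO. Several other members of the SLC30 family also stood above Slc30a1 in both libraries.

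Carriers of amino acids, peptides and amines numbered 18 and held 16.3%. Slc43a2, a carrier of large neutral amino acids, stood at 131 CPM in the library labelled WT and 85.7 CPM in the library labelled IPKO. Slc3a2, the heavy chain with which several amino acid exchangers pair, was at 97.6 and 104 CPM. The peptide carrier Slc15a2 was at 73.6 and 92.2 CPM, the taurine carrier Slc6a6 at 81.1 and 75.7 CPM, and Slc38a2, an importer of small neutral amino acids, at 82.6 and 66.9 CPM. The light chains that pair with Slc3a2 were not members as a group: of the SLC7 family, the members were the cationic amino acid carrier Slc7a2 and its relative Slc7a4. The level of Slc7a2 was 21.5 and 11.8 CPM, and that of Slc7a4 was 15.4 and 18.6 CPM.

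Carriers of bicarbonate, chloride, sulfate and phosphate numbered 13 and held 13%, most of it from Slc12a2. Slc26a9, a chloride channel and exchanger of airway and gastric epithelium, was at 74.6 and 86.8 CPM in the libraries labelled WT and IPKO. The chloride and bicarbonate exchanger Slc4a2 was at 33.9 and 30.3 CPM, and the sodium bicarbonate cotransporters Slc4a4 and Slc4a5 were at 32.3 and 29.2 CPM and at 23.8 and 21.1 CPM. Of the choline carrier-like family, Slc44a2 was at 42.1 and 47.7 CPM, Slc44a1 at 37.5 and 36.9 CPM, and Slc44a3 at 33.6 and 30.9 CPM. These 3 led the 10 genes for lipids, choline and acyl groups, which held 4.76%.

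The other groups were smaller. Vitamins, organic cations and drugs had 9 genes and 5.16%, among them Slc22a23 at 56.3 and 55.1 CPM and Slc22a15 at 24.5 and 23.8 CPM in the libraries labelled WT and IPKO. Nucleotide sugars and the sulfate donor had 12 genes and 4.41%. Their highest was Slc35b1, which in human cells is known to exchange ATP for ADP across the endoplasmic reticulum membrane, at 39.5 and 31 CPM. Sugars and polyols had 6 genes and 2.44%, led by Slc50a1 at 39.2 and 42 CPM, while the glucose carrier Slc2a1 was at 7.09 and 7.07 CPM. Monocarboxylates and dicarboxylates had 3 genes, with the lactate and pyruvate carrier Slc16a1 at 32.9 and 28.4 CPM. Exchange of sodium, protons and calcium had 4 genes, among them the sodium, calcium and potassium exchanger Slc24a4 at 21.6 CPM in each library. Genes with no settled substrate numbered 8, and the highest was Slc35e4 at 24 and 22.4 CPM. The genes that are no carriers were led by Slc9a3r2 at 76.2 and 88.5 CPM.

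Between the libraries, 8 members (5.97%) were higher by this measure in the library labelled IPKO, against 8.4% of the 8500 genes at 5 CPM or more. Lower were 9 members (6.72%), against 4.74% of those genes. At a stricter size of 1.5-fold there were 0 higher members and 3 lower, against 1.69% and 1.51% of all genes. The median log2 ratio was 6.3e-05 over the members and 0.06 over all genes. Scaling the libraries in other ways changed the split of higher against lower members from 8 and 9 to 5 and 12 (median-of-ratios size factors) and to 4 and 14 (TMM size factors). Of all genes, 5.27% were then higher and 6.79% lower with median-of-ratios, and 4.87% higher and 7.11% lower with TMM. Within the set size lay 87.3% of members and 86.9% of all genes. The counting interval lay above 0 for 42 members (31.3%), below 0 for 42, and held 0 for 50 (37.3%). Over all genes it lay above 0 for 3855 (45.4%), below 0 for 1916 (22.5%), and held 0 for 2729 (32.1%).

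**Figure D2:**
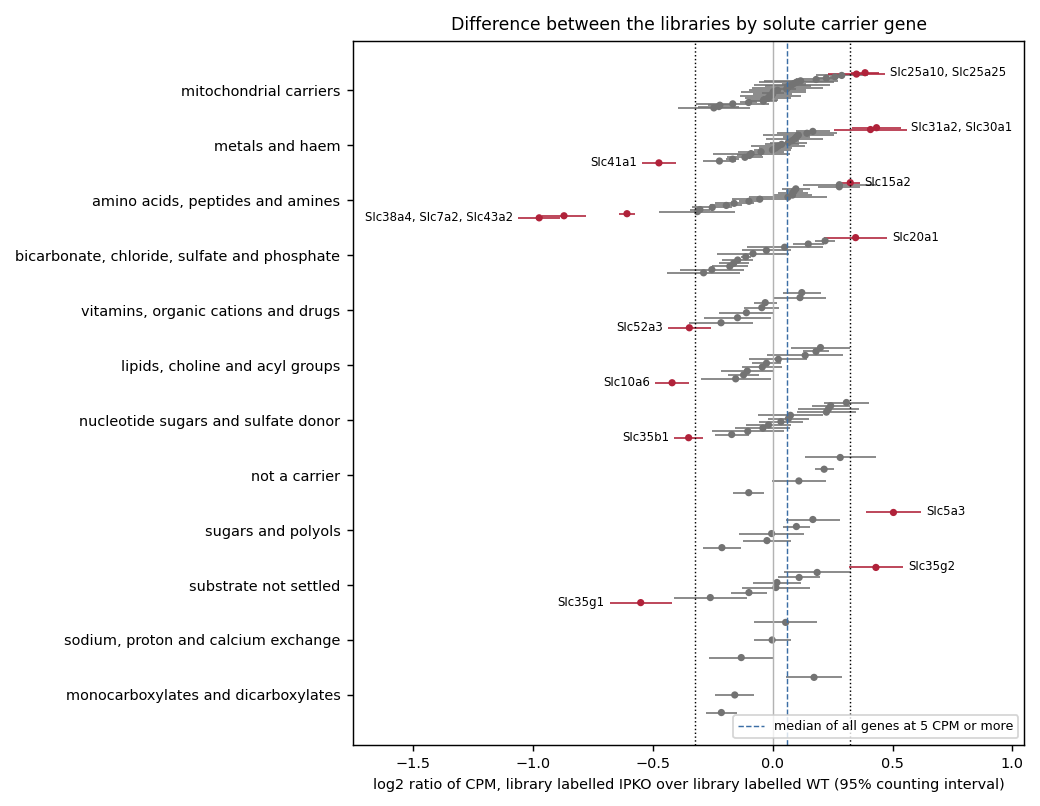
Log2 ratio of CPM, library labelled IPKO over library labelled WT, for 131 of the solute carrier genes by substrate group, with 95% counting intervals. Red points are past 0.32 in size (dotted lines) and the dashed line is the median of all genes at 5 CPM or more, 0.06; Slc38a4, Slc7a2 and Slc43a2, at -0.97, -0.87 and -0.61, lie lowest.

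The 3 members past 1.5-fold were all amino acid carriers, and all were lower in the library labelled IPKO. Slc38a4, an importer of neutral amino acids, was at 24.2 CPM (23.3 to 25) in the library labelled WT and 12.3 CPM (11.7 to 12.9) in the library labelled IPKO, a log2 ratio of -0.97. It had a UMI in 31.3% and 17.2% of cells, and in 6.17% and 3.51% after every cell was thinned to 3000 UMIs. Slc7a2, which imports arginine, lysine and ornithine, was at 21.5 CPM (20.7 to 22.3) and 11.8 CPM (11.2 to 12.3), a log2 ratio of -0.87. Slc43a2 was at 131 CPM (129 to 133) and 85.7 CPM (84.2 to 87.3), a log2 ratio of -0.61, with a UMI in 83.0% and 68.7% of cells and in 31.6% and 21.1% after thinning. None of these pairs of counting intervals overlapped. The 15 other members of the amino acid group were not past 1.5-fold: their log2 ratios ran from -0.31 for Slc38a7 to 0.32 for Slc15a2. The heavy chain gene Slc3a2 had a log2 ratio of 0.09 and Slc38a2 one of -0.30. Under 13 alternative settings Slc38a7 was lower by the set size in 7 and Slc38a2 in 6.

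The 6 other lower members came from 6 groups, and 5 of them are described. Slc35g1, of no settled substrate, was at 9.48 and 6.47 CPM (log2 ratio -0.55) in the libraries labelled WT and IPKO. The magnesium carrier Slc41a1 had a log2 ratio of -0.47, and Slc10a6, a carrier of sulfated steroids, was at 28.7 and 21.4 CPM (log2 ratio -0.42). Slc35b1 and the riboflavin carrier Slc52a3 each had a log2 ratio of -0.35, and Slc52a3 was at 18.5 and 14.6 CPM. Slc38a4, Slc7a2, Slc43a2 and Slc41a1 were past the set size in each of 8 subsets of cells, which are the lowest and highest 25% of the 4 ranges described below. These subsets overlap and come from the same cells that gave the ratios, so they are not separate readings.

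The 8 higher members were mostly of low level. Slc5a3, which imports the osmolyte myo-inositol, was at 8.26 CPM (7.76 to 8.79) in the library labelled WT and 11.7 CPM (11.1 to 12.3) in the library labelled IPKO, a log2 ratio of 0.50. Slc5a3 overlaps Mrps6 on the same strand, so molecules of these genes can be confused and its value is uncertain. Slc31a2, a copper carrier of endosomes and lysosomes, was at 10.6 and 14.3 CPM (log2 ratio 0.43), and Slc35g2, of no settled substrate, was at 8.71 and 11.7 CPM (0.43). Slc30a1 had a log2 ratio of 0.41 (0.26 to 0.56). Slc25a10, with 34.6 CPM (33.6 to 35.7) against 45.2 CPM (44.1 to 46.4), had a log2 ratio of 0.39. The mitochondrial carrier of ATP-magnesium and phosphate Slc25a25 and the sodium phosphate cotransporter Slc20a1 each had a log2 ratio of 0.35. Slc15a2 was the highest in level and the nearest to the set size, with a log2 ratio of 0.32 (0.28 to 0.36). Slc15a2, Slc20a1 and Slc25a25 were within the set size under both other scalings, and Slc25a10 with TMM size factors. Of the 13 alternatives, Slc20a1 was past it in 6 and Slc15a2 and Slc25a25 in 8 each, while Slc5a3 and Slc31a2 were past it in all 13.

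The libraries also differed in other ways, whose part in these ratios was not tested. Of 16 early response genes, among them Fos, Jun and Egr1, 13 were higher in the library labelled IPKO by the same measure, with a median log2 ratio of 0.73. In cells under the pooled median share of these genes (4376 labelled WT and 2567 labelled IPKO), 3 of 132 members (2.27%) were higher, against 6.93% of all genes there. Lower there were 13 members (9.85%), against 5.57% of all genes. The higher ones were Slc5a3, Slc31a2 and Slc25a10, and the log2 ratio of Slc25a25 was 0.15. Those of Slc38a4, Slc7a2 and Slc43a2 there were -1.03, -0.81 and -0.56. Another alternative, chosen after seeing the data, kept cells without any UMI of markers of removed cell types (5970 and 6716 cells). The markers Cd79b, Egfl7 and Cd68 were not used for this choice. In these cells the log2 ratios of Slc38a4, Slc7a2 and Slc43a2 were -1.0, -0.88 and -0.62.

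Slc30a1 is a known target of the zinc-sensing factor MTF-1 in mouse, which acts through metal response elements (MREs). Its promoter is shown because the gene was higher in the library labelled IPKO and its window can be searched for these elements. Among the genes of metal handling looked at outside the members, the log2 ratio was positive except for the transferrin receptor gene Tfrc. The metallothionein Mt2 was past the set size, at 8.7 and 11.3 CPM (log2 ratio 0.38). Within it were Mt1 at 111 and 135 CPM (0.27), Mtf1 at 11.4 and 13.6 CPM (0.25) and Tfrc at 212 and 176 CPM (-0.27). The ferritin genes Fth1 (0.16) and Ftl1 (0.10) were also within it. Of the 20 metal and haem carriers, 2 (10%) were higher, against 8.4% of all genes, and 1 (5%) was lower, against 4.74%. The counting interval lay above 0 for 6 of these carriers (30%), against 45.4% of all genes. It lay below 0 for 5 (25%), against 22.5%. The part of MTF-1 in the ratio of Slc30a1 was not tested. The window of 250 bases before to 50 after the RefSeq start (GRCm38.p6, chr1:191906531-191906830, plus strand) holds 2 matches to the MRE core, in capitals, at -43 and 31 from the start, both on the opposite strand.
Slc30a1: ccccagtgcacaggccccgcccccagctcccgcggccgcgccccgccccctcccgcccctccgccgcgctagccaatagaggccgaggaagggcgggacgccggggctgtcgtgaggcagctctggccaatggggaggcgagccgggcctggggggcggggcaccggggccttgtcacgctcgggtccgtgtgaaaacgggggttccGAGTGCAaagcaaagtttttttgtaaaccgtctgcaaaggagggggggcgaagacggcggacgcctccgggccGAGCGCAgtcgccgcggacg
The core was searched on both strands as TGCACNC or TGCGCNC. It occurred in 25.7% of all 32851 promoter windows of this length and in 41.8% of the 134 windows of the 108 members found in the table, so that a match alone is common. The 32851 windows were not limited to genes at 5 CPM or more, as the members were, so these shares come from unlike sets.

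Within each library, AT2 cells were next placed along 4 ranges by the share of UMIs from a list of genes, and the highest 25% of cells were set against the lowest 25% (1606 cells each in the library labelled WT and 1866 each in the library labelled IPKO). Such a subset is a stretch of a continuous score and not a cell type. Many cells lay near the limits of these subsets, between 351 and 1155 of them within 10% of a limit. A member was counted when its log2 ratio, highest over lowest, was past 0.32 in size the same way in both libraries. By this count 105 members (78.4%) took part in no range, 22 (16.4%) in 1, 4 (2.99%) in 2, 3 (2.24%) in 3 and 0 in 4. Of 8465 genes that were on none of the lists, 79.7% took part in no range, 14.3% in 1, 4.19% in 2, 1.45% in 3 and 0.354% in 4. The scores moved together, so the ranges are not separate readings. The median early response share was 0.297% in the highest and 0.181% in the lowest transitional cells of the library labelled WT, and 0.537% and 0.440% in the library labelled IPKO. The median share of Lcn2 and Lrg1 was 0.0483% in the highest and 0.0736% in the lowest early response cells of the library labelled WT, and 0.0358% and 0.0629% in the library labelled IPKO.

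**Figure D3:**
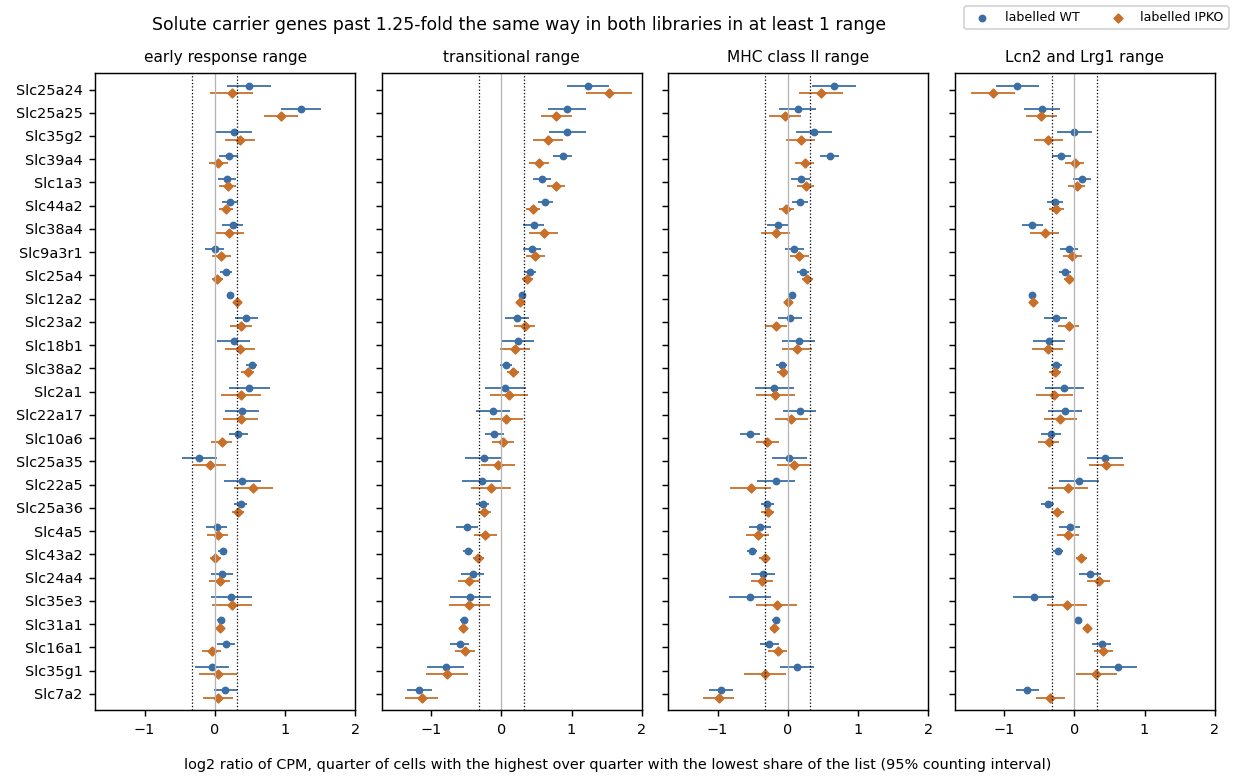
Log2 ratio of the highest over the lowest 25% of AT2 cells in each of 4 ranges, for 27 of the solute carrier genes past 0.32 in size the same way in both libraries in at least 1 range, with 1 point per library and 95% counting intervals. Slc25a24 lies highest in the transitional range, at 1.23 and 1.53, and Slc7a2 lowest, at -1.17 and -1.13.

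Along the early response range, 7 members (5.22%) were higher in the highest 25% of cells of both libraries, against 9.09% of all genes, and 0 were lower, against 0.542%. Slc25a25 stood first: its level went from 4.91 CPM in the lowest to 11.5 CPM in the highest cells of the library labelled WT and from 6.80 to 13.1 CPM in the library labelled IPKO, log2 ratios of 1.23 and 0.94. Slc38a2 went from 69.4 to 99.8 CPM and from 56.7 to 78.4 CPM. The others were the glucose carrier Slc2a1, the carnitine carrier Slc22a5, the vitamin C carrier Slc23a2, Slc22a17 and Slc25a36, with log2 ratios between 0.33 and 0.55. With the score taken from thinned cells, Slc22a5, Slc23a2, Slc22a17 and Slc25a36 were not past the set size in both libraries. Slc25a36 also was not in cells of 10000 to 30000 UMIs or in cells with up to 10% mitochondrial UMIs. The highest cells were shallower, with medians of 17246 against 19089 UMIs in the library labelled WT and 16170 against 17472 in the library labelled IPKO. Summed endothelial markers were higher in them, at 19.6 against 12.1 CPM and 26.9 against 16.9 CPM, and club cell markers lower, at 848 against 1573 CPM and 270 against 596 CPM. Their part in these ratios was not tested.

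Slc25a25 has 3 RefSeq starts, and the one whose window holds a full cAMP response element is shown because this element is bound by factors of the CREB and ATF family, to which the early response gene Atf3 belongs. The window (GRCm38.p6, chr2:32424017-32424316, minus strand) has the element TGACGTCA, in capitals, at -150 from the start, and the windows of the other starts have none. The first 50 bases after this RefSeq start were in no GENCODE transcript of the release used here.
Slc25a25: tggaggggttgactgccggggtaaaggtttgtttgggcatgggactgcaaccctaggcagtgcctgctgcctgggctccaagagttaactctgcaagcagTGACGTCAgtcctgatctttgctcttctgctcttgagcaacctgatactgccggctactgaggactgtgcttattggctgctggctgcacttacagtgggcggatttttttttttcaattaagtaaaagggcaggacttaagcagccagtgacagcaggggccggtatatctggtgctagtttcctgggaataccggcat
This element, which reads the same on both strands, occurred in 1.79% of all promoter windows and 1.49% of the members' windows. The AP-1 element TGANTCA, searched on both strands, was in none of the 3 windows of Slc25a25. It occurred in 7.81% of all windows and 4.48% of the members' windows. Atf3 is itself on the list that gave the early response score. The part of CREB and ATF factors in the ratios of Slc25a25 was not tested.

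The transitional range, by keratins and other genes of cells on the way from AT2 to AT1, involved the most members. In the highest cells of both libraries 9 members (6.72%) were higher, against 7.2% of all genes, and 7 (5.22%) were lower, against 2.32%. Slc25a24, a calcium-regulated carrier of ATP-magnesium and phosphate like Slc25a25, went from 4.39 to 10.3 CPM in the library labelled WT and from 3.36 to 9.71 CPM in the library labelled IPKO, log2 ratios of 1.23 and 1.53. Slc25a25 itself had log2 ratios of 0.94 and 0.78. Slc25a23, of the same kind, was not among the higher members, with log2 ratios of -0.01 and -0.08. The zinc importer Slc39a4 went from 23.1 to 42.4 CPM and from 22.2 to 32.2 CPM, and the glutamate carrier Slc1a3 from 26 to 38.9 CPM and from 25 to 42.8 CPM. Slc35g2, Slc44a2, Slc38a4, Slc9a3r1 and Slc25a4 completed the higher set. At the other end, Slc7a2 went from 28.5 to 12.7 CPM in the library labelled WT and from 15.5 to 7.06 CPM in the library labelled IPKO, log2 ratios of -1.17 and -1.13. The copper importer Slc31a1 went from 199 to 139 CPM and from 178 to 122 CPM, and Slc16a1 from 37.6 to 24.9 CPM and from 31.6 to 22.1 CPM. Slc35g1, Slc43a2, Slc24a4 and Slc35e3 were the other lower members. Summed myeloid markers stood at 8.21 CPM in the highest and 6.28 CPM in the lowest cells of the library labelled WT and at 44.8 and 7.32 CPM in the library labelled IPKO, while club cell markers stood at 596 and 1731 CPM and at 476 and 408 CPM. Cells without any UMI of markers of removed cell types were chosen without using club cell markers, Cd79b, Egfl7 or Cd68. In these cells all 16 members were past the set size in the same direction. With the score from thinned cells 11 were, and Slc39a4, Slc9a3r1, Slc25a4, Slc43a2 and Slc35e3 were not. The part of club cell markers was not tested.

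Along the MHC class II range, 1 member was higher in both libraries (0.746%, against 1.88% of all genes) and 4 were lower (2.99%, against 1.27%). The higher one was Slc25a24, with log2 ratios of 0.66 and 0.47 in the libraries labelled WT and IPKO. Slc7a2 was again lowest, going from 27.2 to 14.1 CPM and from 15.7 to 7.95 CPM. Slc43a2 went from 149 to 105 CPM and from 92.1 to 73.3 CPM, and Slc4a5 and Slc24a4 had log2 ratios between -0.43 and -0.35. With the score from thinned cells Slc4a5 and Slc24a4 were not past the set size in both libraries. Club cell markers summed to 639 CPM in the highest and 1826 CPM in the lowest cells of the library labelled WT and to 193 and 711 CPM in the library labelled IPKO, and their part was not tested. Of the list itself, all 6 genes had higher levels under the IPKO label, with a median log2 ratio of 0.67. The transitional and MHC class II scores also moved together: the median transitional share was 0.0571% in the highest and 0.0325% in the lowest MHC class II cells of the library labelled WT, and 0.0636% and 0.0393% in the library labelled IPKO.

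Along the range of the secreted proteins Lcn2 and Lrg1, 2 members (1.49%) were higher in both libraries, against 2.21% of all genes, and 9 (6.72%) were lower, against 4.47%. The most abundant member of all was among the lower ones: Slc12a2 went from 366 to 242 CPM in the library labelled WT and from 334 to 222 CPM in the library labelled IPKO, log2 ratios of -0.60 and -0.59. Slc25a24 had log2 ratios of -0.81 and -1.15. Slc38a4, Slc7a2, Slc25a25, Slc18b1 and Slc10a6 were among the others, with log2 ratios between -0.67 and -0.33. The higher members were Slc16a1 and Slc25a35, with log2 ratios between 0.39 and 0.45. The highest cells were deeper here, with medians of 20200 against 16483 UMIs in the library labelled WT and 18919 against 15551 in the library labelled IPKO. Within cells of 10000 to 30000 UMIs, 9 of the 11 were still past the set size, and Slc7a2 and Slc18b1 were not. With the score from thinned cells 5 of the 11 were, and Slc7a2, Slc18b1, Slc10a6, Slc25a25 and both higher members were not. Club cell markers summed to 1450 CPM in the highest and 981 CPM in the lowest cells of the library labelled WT and to 353 and 576 CPM in the library labelled IPKO, and their part was not tested.

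**Figure D4:**
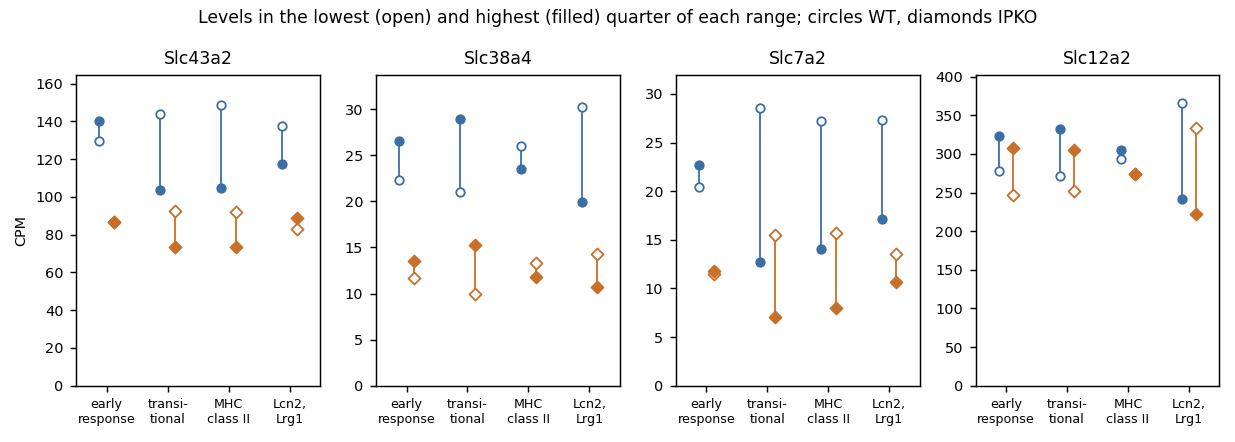
Level in CPM of Slc43a2, Slc38a4, Slc7a2 and Slc12a2 in the lowest (open) and highest (filled) 25% of AT2 cells in each of 4 ranges, with circles for the library labelled WT and diamonds for the library labelled IPKO. In every subset Slc43a2, Slc38a4 and Slc7a2 are lower in the library labelled IPKO than in the same subset of the library labelled WT, while Slc12a2 differs most between the ends of the Lcn2 and Lrg1 range.

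The members also differed in how they varied among cells. The squared deviation of each cell's count from the count that its depth gives, divided by that count and averaged over cells, is 1 where counting is the only source of variation. For the same relative variation among cells this value grows with a gene's level, so it does not rank members of unlike level. It was highest for Slc12a2, the most abundant member, at 2.60 in the library labelled WT and 2.36 in the library labelled IPKO. In the library labelled WT Slc43a2 followed at 1.74 and Slc1a3 at 1.60. In the library labelled IPKO Slc5a3 followed at 1.52, Slc1a3 at 1.5 and Slc43a2 at 1.47. The median over members was 1.1 in each library, and no test against 1 was run.

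The members' levels were last set against cells of removed types that had passed the sort, recognised by at least 3 markers of 1 type and under 10% Sftpc. These numbered 116 in the library labelled WT (591893 UMIs, median 3847 per cell) and 254 in the library labelled IPKO (1561942 UMIs, median 4796). In both libraries 33 members (24.6%) were higher in AT2 cells with an interval clear of 0, against 12.3% of all genes, and 20 (14.9%) were lower, against 33.6%. The mixture of types differed between the libraries, with endothelial cells making up 63 of 116 and 62 of 254. Membership required a level of 5 CPM in AT2 cells, as did the background of genes.

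Slc39a8 stood far above these cells, at 170 against 11.8 CPM in the library labelled WT and 180 against 5.76 CPM in the library labelled IPKO. It had a UMI in 90.4% and 90.5% of AT2 cells and in 5.17% and 3.15% of the other cells. Median depth was 18307 and 17061 UMIs in AT2 cells against 3847 and 4796 in the other cells, so these shares are not at equal depth. Slc26a9 was at 74.6 against 1.69 CPM and at 86.8 against 8.96 CPM, and Slc12a2 at 296 against 27 CPM and at 274 against 39.7 CPM. The 5 highest ratios were those of Slc39a8, Slc26a9, the bicarbonate cotransporter Slc4a5, the glycine carrier Slc6a9 and Slc38a4. Those of Slc4a5, Slc6a9 and Slc38a4 each rested on 1 or 2 UMIs in the other cells. That of Slc26a9 rested on 1 UMI there in the library labelled WT. Slc38a4 was at 24.2 against 1.69 CPM and at 12.3 against 1.28 CPM.

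Some members were higher in the other cells than in AT2 cells. The 5 lowest ratios were those of Slc39a6, Slc30a1, Slc25a24, Slc35f6 and Slc31a2. Slc30a1 was at 5.07 against 52.4 CPM in the library labelled WT and at 6.72 against 16 CPM in the library labelled IPKO, with the highest level in endothelial cells (98.3 and 62.6 CPM). Slc7a2 in the other cells came almost entirely from myeloid cells, with 44 of 45 UMIs in the library labelled WT (250 CPM) and 44 of 46 in the library labelled IPKO (79.3 CPM), against 21.5 and 11.8 CPM in AT2 cells. Slc9a3r2 came from endothelial cells, with 226 of 226 UMIs (966 CPM) and 245 of 253 (1023 CPM), against 76.2 and 88.5 CPM in AT2 cells. Of these, Slc9a3r2 had a UMI in 72.5% and 74.2% of AT2 cells.

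**Figure D5:**
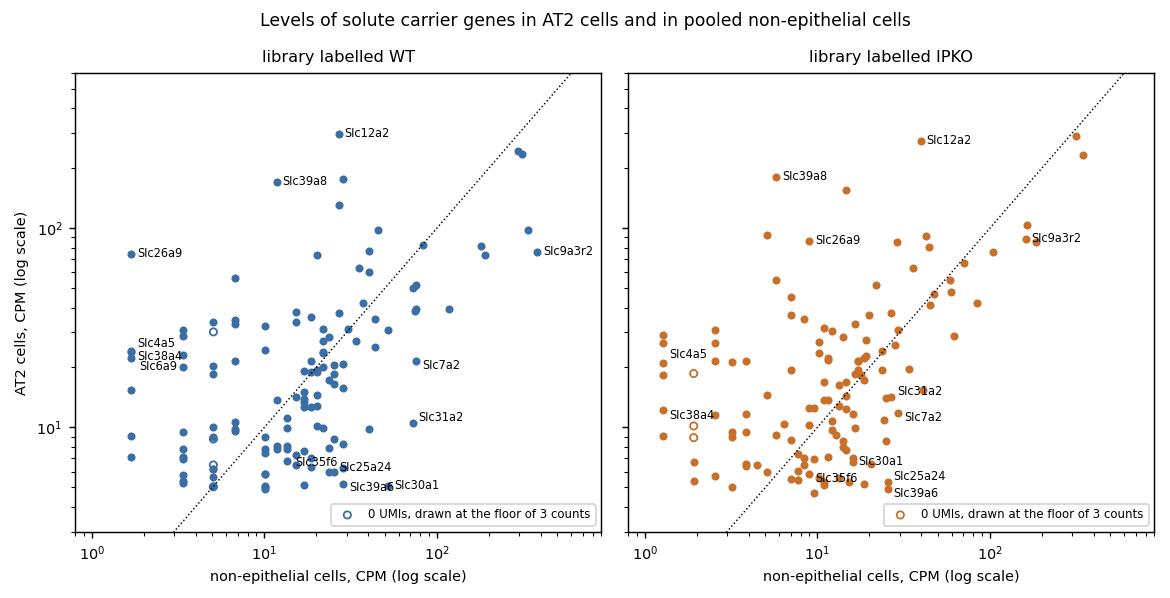
Level of 131 of the solute carrier genes in AT2 cells (vertical) against pooled non-epithelial cells of the same library (horizontal), in CPM on log axes, with the line of equal level dotted and open points for genes with 0 UMIs in the pool, set at a floor of 3 counts. Slc12a2, Slc39a8 and Slc26a9 lie far above the line, and Slc30a1, Slc39a6 and Slc31a2 below it.

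Carriers under other symbols and genes that work with carriers gave a list of 48, of which 44 matched a name in the files and 39 were at 5 CPM or more. Their median log2 ratio between the libraries was 0.04, with 2 of the 39 higher and 4 lower by the set size. Of all genes, 8.4% were higher and 4.74% lower. Lowest was Mfsd2a, which carries lysophospholipids into AT2 cells, at 41 CPM in the library labelled WT and 14.6 CPM in the library labelled IPKO, a log2 ratio of -1.49. Atp1b1, the beta subunit of the sodium pump, was at 1192 and 929 CPM (log2 ratio -0.36), and the pyrophosphate carrier gene Ank was at 5.77 and 4.42 CPM (-0.39). The highest was Pqlc1, at 35.1 and 49.9 CPM (0.51), with Mt2 next. Among genes that pair with or drive the members, Atp1b1 was thus past the set size. Bsg and Emb, the chaperone partners of lactate carriers, had log2 ratios of 0.04 and 0.00. Mpc1 and Mpc2, which together form the mitochondrial pyruvate carrier, were at 130 and 159 CPM and at 198 and 219 CPM.

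Several amino acid carriers are known targets of the stress factor ATF4. Of 20 measured genes of the unfolded protein and integrated stress responses, 14 were lower in the library labelled IPKO by the set size and 0 were higher. Of all genes, 4.74% were lower and 8.4% higher. The median log2 ratio of the 20 was -0.40. This list includes chaperone genes such as Hspa5 (-0.33), Hsp90b1 (-0.68) and Calr (-0.88), so the count is not one of ATF4 targets. Atf4 itself had a log2 ratio of 0.18 and its target Asns one of -0.11. Other genes of this list differed: Ddit3 had a log2 ratio of -0.01, Trib3 one of -0.54 and Sesn2 one of -0.61. The part of ATF4 in the ratios of the carriers was not tested. The composite element of ATF4, searched on both strands as TGATGNAAN, was in none of the 2 promoter windows of Slc43a2 and the 3 of Slc38a4. It occurred in 3.95% of all windows and 0.746% of the members' windows. The E-box CACGTG was in 7.15% of all windows and 15.7% of the members' windows, and the D-box TTATGNAA, searched on both strands, in 3.38% and in 0 of the members' windows. All windows here include those of genes under 5 CPM in AT2 cells, so their shares are no background for expressed genes.

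All 134 members were found by gene ID in the GENCODE annotation of GRCm38, on 20 chromosomes. Ptgir, the gene that the IPKO label refers to, is on chromosome 7, and 0 members lay within 10 Mb of it. The nearest was Slc22a18, 127 Mb away, with a log2 ratio of -0.15. Slc43a2 is at chr11:75531694-75577575, Slc38a4 at chr15:96994820-97055956 and Slc7a2 at chr8:40862396-40922308. On the same strand, 8 members overlap another gene, which leaves their counts uncertain, and 34 overlap a gene on the opposite strand.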

How the data were processed

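Single-cell RNA libraries were made from sorted mouse lung cells with the 10x Genomics Chromium 3' kit, per the labels' protocols. The authors deposited UMI counts, one matrix per library, made with Cell Ranger 4.0.0 on GRCm38 (mm10), per the submitters' processing notes. No source used here names the annotation release. The genotype label gives the groups, of 1 library each. UMIs were summed over the AT2 cells of a library and scaled to CPM. Levels have exact Poisson intervals, shares exact Clopper-Pearson intervals and ratios exact conditional binomial intervals. Counts of called members stand beside the share of all genes with at least 5 CPM past the same size. The calculations were tested on simulated data. No doublet caller was run, and leaving out the 8% of cells with most UMIs was an alternative. In all, 79 barcodes occurred in both libraries, 12 of them as AT2 cells in each. Thinning to 3000 UMIs left out 18 and 21 cells. TMM factors came from edgeR 4.0.16 (R 4.3.3), and other steps used Python 3.11.15 with numpy 2.4.6, scipy 1.17.1, pandas 2.3.3 and matplotlib 3.10.9. Promoter windows came from RefSeq (GRCm38.p6), and shares over all windows were not limited to genes at 5 CPM or more. The motifs and the promoters shown were picked after the values were seen.

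A few members counted in the totals are not reported here by name and are not drawn. The members, the substrate groups and the gene lists were chosen with earlier results of these data known. Named members are the 3 highest levels of each substrate group, the 10 highest and 10 lowest ratios between libraries, up to 5 at each end of each range, and the 5 highest and lowest ratios against other cells. Members named beyond this, such as those of a whole higher or lower set, Slc7a4 and lower-ranked carriers of a group, were picked after their values were seen, for completeness.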

Additional observations from a re-analysis of the deposited data

Results flagged for a closer look

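Slc30a1 moved in opposite ways in the 2 libraries along the MHC class II range, which is why it is listed here. In the library labelled WT it went from 4.48 CPM in the lowest 25% of cells to 5.66 CPM in the highest 25%, a log2 ratio of 0.34 (0.0017 to 0.68). In the library labelled IPKO it went from 8 to 5.64 CPM, a log2 ratio of -0.51 (-0.79 to -0.23). The difference between these ratios was not tested. With the score taken from thinned cells the ratios were 0.14 and -0.26. In cells without a UMI of markers of removed cell types, Cd79b, Egfl7 and Cd68 not used, they were 0.32 and -0.40. Slc30a1 was higher in endothelial cells than in AT2 cells, and summed endothelial markers stood at 15.8 CPM in the highest and 10.5 CPM in the lowest cells labelled WT and at 17.3 and 22 CPM labelled IPKO. Their part in this result was not tested.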

How the results depend on the processing

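No paired analysis was possible because each group holds 1 library. Under every alternative the median log2 ratio of the members stayed between the medians of the members' lower and upper counting limits. These are limits for single members and not for the median, so they are wide for it. Median-of-ratios and TMM size factors shifted every log2 ratio, and with it the median, by -0.06 and -0.068. Of 858 recomputed ratios of 66 named members, 762 lay within the member's main counting interval. Outside it lay 96, and 0 changed sign if called. All 17 members past the set size between the libraries kept their sign, and 8 of them were past it in all 13 alternatives. Shares of all genes under the same setting stand in brackets. The count of higher members, 8 (8.4%), was 5 with median-of-ratios (5.27%) and 4 with TMM size factors (4.87%), 14 when members needed 1 CPM (11%), 2 when they needed 20 CPM (6.27%), and 3 in cells under the pooled median early response share (6.93%). The count of lower members, 9 (4.74%), was 14 with TMM size factors (7.11%), 17 at 1 CPM (5.64%) and 4 at 20 CPM (4.96%). It was 15 in thinned cells (5.60%) and 13 in cells under the pooled median early response share (5.57%). Without Sftpc and mitochondrial UMIs in the totals it was 15 (5.72%). Leaving those UMIs out raises every CPM, so that 149 genes were members there; at 1 CPM 181 and at 20 CPM 56 were. For the ranges, the highest and lowest 10% of cells in place of 25% gave 17 members for early response (19.8%), 28 for transitional (19.3%), 18 for MHC class II (8.41%) and 19 for Lcn2 and Lrg1 (12.6%), and a fold of 1.5 gave 1 (1.27%), 5 (2.74%), 1 (0.753%) and 2 (1.69%). With the score from thinned cells the Lcn2 and Lrg1 count was 7 (4.1%) in place of 11 (6.68%), of which 5 had been among the 11. Of the called members, 3 of 7, 11 of 16, 3 of 5 and 5 of 11 in these ranges were past the set size in all 5 alternatives with the same fold, and 0 turned their sign. The causes were not tested. Depth limits the members near 5 CPM, which had the widest intervals, and the comparison with other cell types, where some members had 0 to 2 UMIs.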
